A study of Mus musculus with 10 samples.

Results

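Adra2a, P2ry1, Glp1r, Gipr, Gcgr, Ffar1, Sstr2 and Sstr3 encode G protein-coupled receptors through which adult islet cells sense other hormones, nerves and nutrients. These 8 genes, of 27716 measured in every matrix, were taken by symbol from a list that had been chosen by their levels in these cells, so their levels are a description here and carry no test. They were followed through the endocrine cells of the embryonic mouse pancreas, profiled by droplet-based single-cell RNA sequencing that counts unique molecular identifiers (UMIs), each standing for 1 captured transcript. Swiss Webster pancreata gave 4 libraries made with the version 1 kit from all live cells (1 each of E12.5 and E17.5, and batches 1 and 2 of E14.5), and 3 made with the version 2 kit from live CD140a- cells, a sort that depletes mesenchyme (1 at each of these stages). The remaining version 2 library came from E14.5 pancreata of Fev-Cre;ROSA26mTmG mice on a C57BL/6J background, in which Cre under the control of Fev, a transcription factor of endocrine progenitors, turns a membrane reporter from tdTomato to GFP. It held sorted GFP+ cells together with TdTomato+/GFP- cells. The mice received no treatment, each library was made from pancreata pooled before sorting, and the sex of the embryos was not given. The E17.5 version 2 library was run in 2 wells of 1 cell suspension, which were summed.

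Heptahelical receptors of this kind act through the alpha subunit they activate. Gs raises cyclic AMP and favours insulin release, Gi lowers cyclic AMP and restrains it, and Gq releases calcium from internal stores through phospholipase C. In the adult islet, Glp1r and Gipr receive the gut incretins and Gcgr receives glucagon, all through Gs; Ffar1 (Gq) senses long-chain fatty acids; P2ry1 (Gq) senses ADP; and Adra2a, Sstr2 and Sstr3 are Gi receptors for catecholamines and for somatostatin. Endocrine cells of the embryo arise from Ngn3+ progenitors, and most pass through a state that expresses Fev before becoming hormone-producing cells. The authors' Fev-Cre lineage trace labelled nearly all alpha, beta and delta cells but only part of the epsilon cells.

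Of 66017 barcodes, 57982 held at least 200 genes, and 8258 of these were endocrine and not called doublets. Of these, 6124 fell in 7 classes named by markers: Ngn3+-like progenitors, Fev+/Pax4+-like and Fev+/Chgb+-like cells (together Fev+-like), and alpha-like, beta-like, delta-like and epsilon-like cells. Another 156 were set apart as cycling endocrine cells, of the version 2 kit, and the rest were left unnamed. A level is the counts-per-million (CPM) of UMIs in all cells of a class in a library, and a class was used in a library where it held at least 20 cells, so beta-like cells could be read in 6 libraries, from E14.5 on, and alpha-like cells in all 8. The make-up of the Fev+-like cells differed between libraries: they were Fev+/Pax4+-like alone (78 cells) in version 2 E12.5, Fev+/Chgb+-like alone (260 cells) in version 2 E17.5 and both in the other 6, and the part of this in comparisons with Fev+-like cells was not tested. Libraries of the same kit shared 19 to 35 (version 1) or 87 to 156 (version 2) cell barcodes in pairs. Median UMIs per cell ranged from 2950 to 11249.5 over libraries. The beta-like cells held Ins1 and Ins2 at medians of 35180 and 136400 CPM, and the alpha-like cells held Gcg at 57110 CPM. The alpha-like cells also held Ghrl, the epsilon hormone, at a median of 4240 CPM (96.71 to 32480 over libraries). Epsilon-like cells held it at 8291 to 76960 CPM, and the part of this in the alpha-like receptor levels was not tested. Hormone transcripts took 9.34% to 45.2% of the UMIs of beta-like cells and 7.504% to 14.2% of those of alpha-like cells, which lowers the CPM of every other gene in proportion. The version 1 libraries of E12.5 and E17.5 belong to batch 2, as does 1 of the 2 of E14.5, so that stages can be compared within a batch there, whereas the version 2 libraries were each prepared on another day. Stage cannot be told apart from litter and the time of dissociation, which was longer the later the stage (10, 15 and 30 minutes), nor from day with the version 2 kit. The Fev-Cre library, of another strain, genotype and sort, stood on the E14.5 side alone, so these are mixed into the fitted stage differences.

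**Figure D1:**
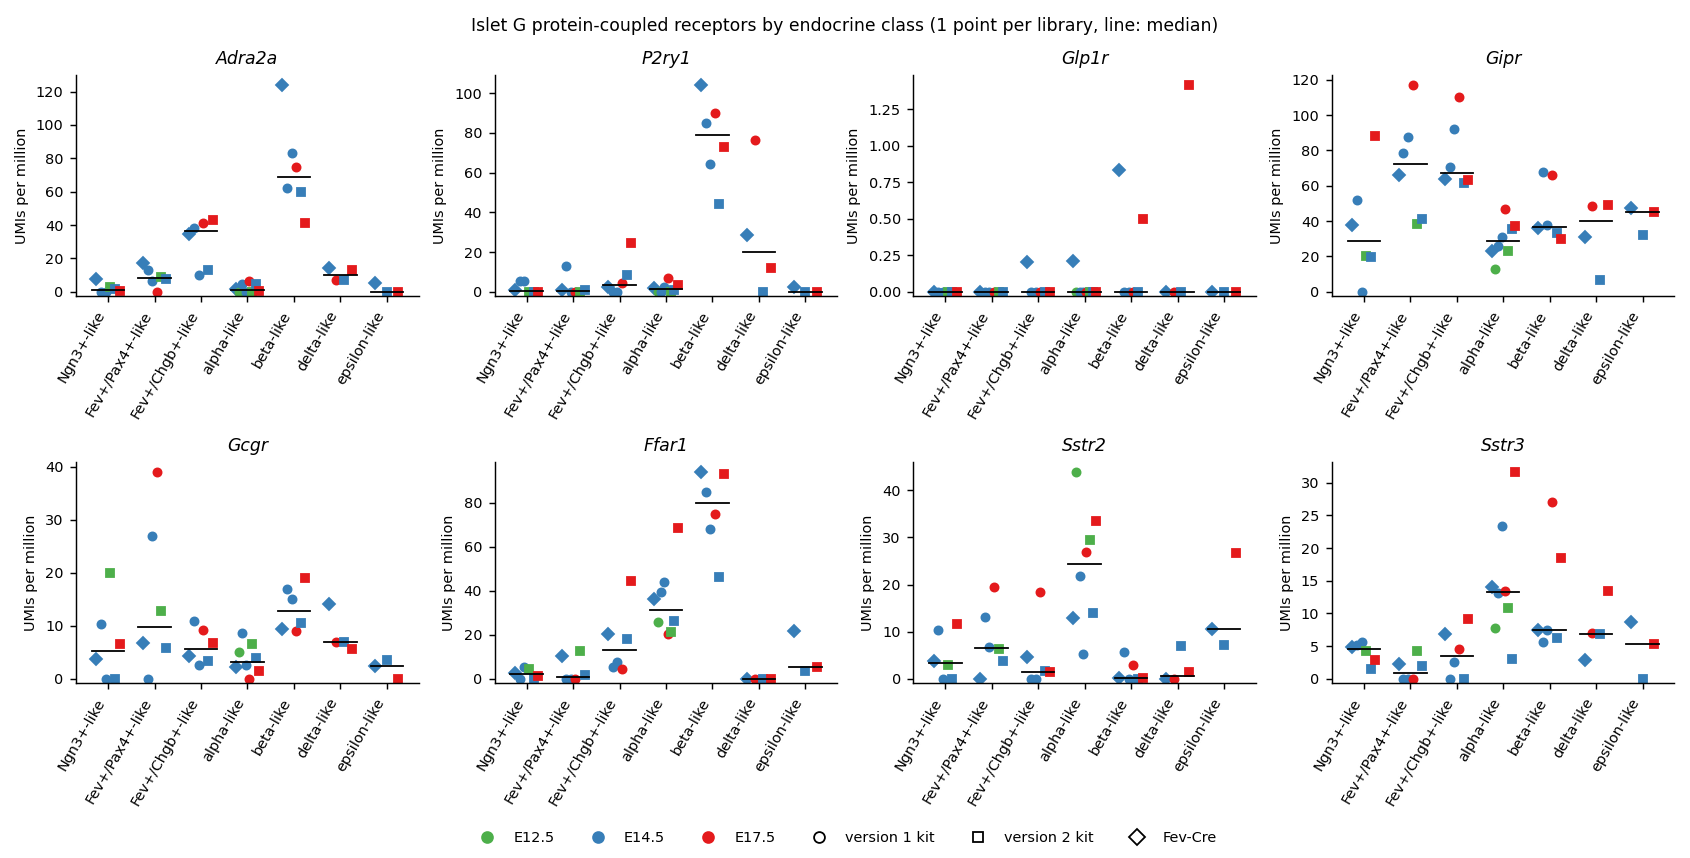
Each panel plots 1 receptor gene, with UMI counts-per-million on a linear y axis of its own and 7 endocrine classes on the x axis. Each point is 1 library, coloured by stage and shaped by kit, and the line is the median over libraries. Adra2a, P2ry1 and Ffar1 have their highest medians in beta-like cells (68.7, 78.9 and 80.0), Gipr in the Fev+/Pax4+-like cells (72.2), and Sstr2 and Sstr3 in alpha-like cells (24.4 and 13.3).

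Adra2a, the alpha-2A adrenergic receptor, was at its highest median in beta-like cells and was low in alpha-like cells. In beta-like cells of E14.5 it stood at 62.3 and 83.0 CPM in the version 1 batches, 59.7 CPM in the version 2 library and 124 CPM in the Fev-Cre library. At E17.5 it stood at 75.0 CPM (version 1) and 41.4 CPM (version 2). The alpha-like cells of the same libraries held 0 to 6.73 CPM, below the beta-like value in 6 of 6 libraries and with no overlap between the ranges. The fitted log2 difference between beta-like and alpha-like cells was 5.88 (SE 0.29).

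Adra2a was also counted along the progenitor classes. Ngn3+-like cells held a median of 1.13 CPM of Adra2a, Fev+/Pax4+-like cells 8.10 CPM and Fev+/Chgb+-like cells 36.3 CPM. Fev+-like cells stood above Ngn3+-like cells in 6 of 6 libraries, and Fev+/Chgb+-like above Fev+/Pax4+-like cells in 5 of 5. Beta-like cells stood above Fev+-like cells in 5 of 6 libraries, the exception being the version 2 E17.5 library (41.4 against 42.9 CPM). With 8 hormone genes left out of the total, a scaling chosen after the hormone shares were seen, that library stood at 75.5 against 44.5 CPM, and beta-like cells were above in 6 of 6. In the Fev+/Chgb+-like cells of that library, the beta-like markers summed to 31400 CPM, against 1551 to 8504 CPM in the other 5 libraries, and the part of this in the receptor's level was not tested. The highest value outside the named classes was 98.8 CPM, in a cluster of 255 cells of the Fev-Cre library that was left unnamed. The cycling endocrine cells of the version 2 E17.5 library (80 cells) held 24.4 CPM of Adra2a, 64.0 of P2ry1, 81.5 of Ffar1 and 22.5 CPM of Sstr3, with beta-like markers summed to 408200 CPM. Those of the version 2 E14.5 (26 cells) and Fev-Cre libraries (37 cells) held 6.05 and 4.82 CPM of Adra2a, 6.05 and 0 of P2ry1, 12.1 and 12.04 of Ffar1 and 0 and 24.1 CPM of Sstr3, with these markers summed to 725.5 and 6285 CPM. Delta-like cells held 6.92 to 14.2 CPM, and epsilon-like cells held UMIs in 1 of 3 libraries (5.01 CPM). The ranges of neighbouring classes in this order overlapped throughout.

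P2ry1, the ADP receptor, differed from Adra2a in being low in the Fev+-like cells. Its levels in beta-like cells were 85.0 and 64.2 CPM in the version 1 E14.5 batches, 44.0 CPM in the version 2 E14.5 library and 104 CPM in the Fev-Cre library, and 90.0 and 72.8 CPM in the version 1 and version 2 libraries of E17.5. Alpha-like cells held 0 to 6.73 CPM, below every beta-like value, with a fitted log2 difference of 5.49 (SE 0.23). Fev+/Chgb+-like cells held 0 to 8.30 CPM in 5 libraries and 24.7 CPM in the version 2 E17.5 library, the one with the high sum of beta-like markers. Beta-like cells exceeded Fev+-like cells in 6 of 6 libraries, by a fitted 4.02 (SE 0.49) on the log2 scale.

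Delta-like cells came next in the order of P2ry1, with 0, 28.4, 76.5 and 12.1 CPM in the version 2 E14.5, Fev-Cre, version 1 E17.5 and version 2 E17.5 libraries. The value of 76.5 CPM came from 11 UMIs in 38 cells. The beta-like markers summed to 7613, 7236, 18840 and 20630 CPM in the delta-like cells, in the same order of libraries. Their part in the P2ry1 levels was not tested. Outside the endocrine cells P2ry1 was found in the neural and glial-like class (1.23 to 32.7 CPM) and in immune-like cells (0 to 15.3 CPM).

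Ffar1, the long-chain fatty acid receptor, was present in both beta-like and alpha-like cells. Beta-like cells held 85.0, 67.9, 46.1 and 93.9 CPM at E14.5 (version 1 batch 1, version 1 batch 2, version 2 and Fev-Cre), and 75.0 and 93.2 CPM at E17.5 (version 1 and version 2). The alpha-like cells of the same libraries held 39.2, 44.2, 26.3, 36.4, 20.2 and 68.4 CPM. Beta-like cells were the higher class in 6 of 6 libraries, with a fitted log2 difference of 1.29 (SE 0.14), although the ranges over libraries overlapped. Alpha-like cells already held 25.8 and 21.2 CPM at E12.5.

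Ffar1 was not detected in delta-like cells. Not 1 UMI was counted in the 30, 47, 38 and 160 delta-like cells of the version 2 E14.5, Fev-Cre, version 1 E17.5 and version 2 E17.5 libraries, where 3 UMIs would have given 2.13 CPM in the version 2 E17.5 library and 8.53 to 20.9 CPM in the other 3. Fev+/Chgb+-like cells held 4.59 to 44.3 CPM, with the highest value again in the version 2 E17.5 library, and Fev+/Pax4+-like cells 0 to 12.8 CPM. In the non-endocrine classes the highest value was 3.39 CPM.

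How many single cells held UMIs of more than 1 of these receptors differed between the libraries. In the version 2 E17.5 library, 531 of 569 beta-like cells (93.3%) held at least 1 UMI of Adra2a, P2ry1 or Ffar1, and 173 (30.4%) held all 3. In the Fev-Cre library these numbers were 358 and 72 of 419 beta-like cells (85.4% and 17.2%). In the version 2 E14.5 library 79 of 130 beta-like cells (60.8%) held any of them and 3 (2.31%) held all 3. No alpha-like cell held all 3 in the version 2 libraries, among 208 cells of E12.5, 240 of E14.5, 408 of E17.5 and 565 of the Fev-Cre library. Depth raises such shares, and the beta-like cells held medians of 21069 (version 2 E17.5), 8467 (Fev-Cre) and 6956.5 UMIs per cell (version 2 E14.5), against 10054, 8214 and 4862 in the alpha-like cells.

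Shares of cells with a UMI were therefore also read after each cell had been thinned to 2000 UMIs (version 1) or 3000 UMIs (version 2). Adra2a was then found in 9.52% to 31.0% of beta-like cells over libraries, 0% to 1.47% of alpha-like cells and 0.0295% to 3.95% of mesenchymal-like cells. The mesenchymal-like share is not read as a background for Adra2a, since in the version 2 E17.5 library it was 13 of 329 cells (16.2 CPM before thinning), against 0 of 1819 erythroid-like cells, where 3 cells would be 0.165%. Not 1 erythroid-like cell of the 8 libraries held an Adra2a UMI after thinning. P2ry1 was found in 8.46% to 25.8% of beta-like cells, 0% to 3.33% of alpha-like cells and 0.190% to 0.928% of mesenchymal-like cells. As P2ry1 UMIs were counted in the mesenchymal-like cells of all 8 libraries (0.295 to 4.21 CPM before thinning), that share is not read as its background either. Sstr2 ranged from 0 to 5.14 CPM in mesenchymal-like cells before thinning, so its share there is not read as a background. The mesenchymal-like share is taken as a background for the receptors other than Adra2a, P2ry1 and Sstr2. For Ffar1 the shares were 10.0% to 27.1% of beta-like cells, 3.85% to 15.2% of alpha-like cells and 0% to 0.214% of mesenchymal-like cells. Before thinning, P2ry1 UMIs were found in 18.8% to 65.9% of beta-like cells, the highest share standing in the deepest library (version 2 E17.5). Thinning was a single random draw for each class and library, and the intervals do not cover its spread. The same 78 cells of version 2 E12.5 held Adra2a in 3 cells when drawn as Fev+/Pax4+-like and in 0 when drawn as Fev+-like.

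The stretch of DNA before the start of P2ry1 and Ffar1 is shown because these receptors were highest in the same class. Both sequences are RefSeq promoter windows on GRCm38.p6, read 5′ to 3′ on the strand of the gene, and capitals mark motif matches. That of P2ry1 lies at chr3:61002535-61002784 on the plus strand, and that of Ffar1 at chr7:30861565-30861720 on the minus strand, cut at the end of the gene as annotated by GENCODE.
P2ry1: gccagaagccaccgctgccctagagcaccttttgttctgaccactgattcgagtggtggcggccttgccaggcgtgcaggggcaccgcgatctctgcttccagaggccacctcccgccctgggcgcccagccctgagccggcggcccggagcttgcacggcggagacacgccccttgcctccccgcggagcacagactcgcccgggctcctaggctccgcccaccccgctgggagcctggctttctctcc
Ffar1: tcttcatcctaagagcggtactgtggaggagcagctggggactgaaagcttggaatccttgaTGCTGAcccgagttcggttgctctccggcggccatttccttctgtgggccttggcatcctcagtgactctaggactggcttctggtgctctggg
The 250 bases before the RefSeq starts of 7 receptors were searched on both strands for 7 letter strings: the homeodomain core TAATTA, the E-box CAGATG, the MAF half-site TGCTGA, the ETS site CCGGAA, the cyclic AMP response element TGACGTCA, its half-site TGACG (which the full element contains) and the FOXA site TGTTTAC. Ffar1 held the MAF half-site 188 bases before its start, a string found in 16.1% of 32851 promoter windows of the same length, and an E-box at 59 bases (14.4% of windows). The E-box lies in the 94 bases of the window that fall inside the gene as annotated, and so outside the stretch shown. No match was found in the windows of P2ry1, Glp1r and Gcgr, and Adra2a held a half-site of the cyclic AMP response element 69 bases before its start (17.8% of windows). Sstr3 has 2 such windows, of which the first held this half-site 9 bases before its start and the second held no match. The windows of Adra2a and Sstr3 lie wholly inside their genes as annotated by GENCODE, so these matches are not upstream of the annotated genes. Gipr has no window in the table and was not searched.

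The incretin and glucagon receptors gave 3 different pictures. Glp1r, the receptor for GLP-1 on adult beta cells, was near 0, with 17 UMIs in all classes and libraries together. Of these, 3 came from beta-like cells of the Fev-Cre library (0.836 CPM), 6 from beta-like cells of the version 2 E17.5 library (0.497 CPM, 95% Poisson interval 0.182 to 1.08) and 2 from delta-like cells of the latter (1.42 CPM). In the other 4 libraries beta-like cells held 0 UMIs, where 3 UMIs would have given 3.14 to 17 CPM. Intervals and floors cover counting error only. Glp1r did not pass the filter on low counts in any comparison.

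Gipr, the receptor for GIP, was counted in every endocrine class and was highest in the Fev+-like cells. In Fev+-like cells it stood at 35.3 and 38.5 CPM at E12.5 (version 1 and version 2), at 73.0, 90.7, 48.6 and 64.3 CPM at E14.5 (version 1 batch 1, version 1 batch 2, version 2 and Fev-Cre), and at 111 and 63.0 CPM at E17.5 (version 1 and version 2). Alpha-like cells held 12.9 to 47.1 CPM, below the Fev+-like cells in 8 of 8 libraries, and beta-like cells 30.1 to 68.0 CPM, below them in 6 of 6. The fitted log2 differences from Fev+-like cells were -0.88 (SE 0.16) for alpha-like and -0.32 (SE 0.16) for beta-like cells. With the hormone transcripts left out of the total, beta-like cells stood at 40.7 to 89.6 CPM and below the Fev+-like cells in 5 of 6 libraries, as version 1 E14.5 batch 1 then gave 78.5 against 73.1 CPM.

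Ngn3+-like cells ranged widely in Gipr, from 0 UMIs in the version 1 E14.5 batch 2 to 88.2 CPM in the version 2 E17.5 library. Fev+-like cells stood above them in 5 of 6 libraries. Epsilon-like cells held 32.3 to 47.6 CPM and delta-like cells 6.92 to 48.9 CPM. The fitted log2 difference of Gipr between beta-like and alpha-like cells was 0.59 (SE 0.16), and beta-like cells were higher in 4 of 6 libraries, and in 6 of 6 with the hormone transcripts left out. No non-endocrine class went above 5.08 CPM. After thinning, a Gipr UMI was found in 10.3% to 18.5% of the Fev+-like cells with the version 2 kit and 0% to 20.5% with version 1, where the 0% is 0 of 20 cells at E12.5. The shares were 8.89% to 12.65% of beta-like cells and 1.85% to 12.7% of alpha-like cells over all libraries, against 0% to 0.373% of mesenchymal-like cells.

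Gcgr, the glucagon receptor, stood higher in beta-like than in alpha-like cells. Beta-like cells held 17, 15.1, 10.5 and 9.47 CPM at E14.5 (version 1 batch 1, version 1 batch 2, version 2 and Fev-Cre), and 9.00 and 19.0 CPM at E17.5 (version 1 and version 2). Alpha-like cells of these libraries held 8.72, 2.60, 3.87, 2.31, 0 and 1.41 CPM, below the beta-like value in 6 of 6. Only the version 2 E17.5 library (230 UMIs) and the Fev-Cre library (34 UMIs) had more than 10 UMIs of Gcgr in beta-like cells. The fitted log2 difference was 2.95 (SE 0.38). Fev+/Pax4+-like cells followed in the order, from 0 to 39.0 CPM, where the highest value was 2 UMIs in 20 cells. Their median was above that of beta-like cells when version 1 E14.5 batch 1 was left out, and delta-like cells were the highest with classes drawn from a random part of the UMIs. Ngn3+-like cells reached 20.04 CPM in the version 2 E12.5 library (14 UMIs).

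The somatostatin receptors Sstr2 and Sstr3 both had their highest median in alpha-like cells, and Sstr2 was near absent from beta-like cells while Sstr3 was not. Sstr2 in alpha-like cells stood at 43.9 and 29.4 CPM at E12.5 (version 1 and version 2), at 21.8, 5.20, 13.9 and 12.8 CPM at E14.5 (version 1 batch 1, version 1 batch 2, version 2 and Fev-Cre), and at 26.9 and 33.5 CPM at E17.5 (version 1 and version 2). After thinning, the shares of alpha-like cells with a Sstr2 UMI were 11.5% (E12.5), 2.50% (E14.5), 3.36% (Fev-Cre) and 8.33% (E17.5) with the version 2 kit, against 0% to 0.127% of mesenchymal-like cells in all libraries. With version 1 they were 2.94% and 1.35% in batches 1 and 2 of E14.5, 3.33% at E17.5 and 0 of 54 cells at E12.5. For cells with a UMI among 2000, 3 cells of 54 would be 5.56%, and the exact 95% binomial upper limit is 6.603%. Before thinning, 14 of 57 cells of that library held the 17 UMIs behind its CPM. The thinned share is a single random draw from 54 of these cells, and no order of the stages is read there. Beta-like cells held 6 UMIs of Sstr2 in 6 libraries together, or 0 to 5.67 CPM, and stood below the alpha-like cells in 6 of 6. The highest beta-like value, of 1 UMI in version 1 E14.5 batch 1, lay above the lowest alpha-like value, so the ranges overlapped. Alpha-like cells stood above Fev+-like cells in 8 of 8 libraries, with a fitted log2 difference of 2.50 (SE 0.35).

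Sstr2 was also counted in the exocrine lineages. Ductal-like cells ranged from 1.58 to 19.6 CPM and acinar-like cells from 0 to 9.66 CPM. With the version 2 kit and Swiss Webster embryos, ductal-like cells held 19.6 (E12.5), 4.69 (E14.5) and 4.09 CPM (E17.5), and acinar-like cells 9.66, 2.04 and 0.988 CPM. Adra2a was likewise highest at E12.5 in those 3 libraries, with 11.3, 2.49 and 3.87 CPM in ductal-like and 5.72, 0.639 and 0.180 CPM in acinar-like cells. The version 1 kit did not give this order: ductal-like cells held 10.1 CPM of Sstr2 at E12.5, 5.70 and 18.0 CPM in batches 1 and 2 of E14.5, and 6.98 CPM at E17.5, from 5 to 11 UMIs each, and Adra2a stood at 2.52, 6.73, 0 and 2.79 CPM. Epsilon-like cells held 7.18, 10.7 and 26.6 CPM of Sstr2 in the version 2 E14.5, Fev-Cre and version 2 E17.5 libraries.

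Sstr2 lies wholly inside Slc39a11, a zinc transporter gene on the opposite strand, which was itself found at 23.4 to 52.3 CPM in alpha-like cells and 6.21 to 45.3 CPM in beta-like cells. P2ry1 and Gcgr overlap the antisense genes Gm37035 and Gm11789, which had their highest medians in beta-like cells too (5.83 and 10.4 CPM). The authors ran Cell Ranger with default settings, and the sources used here do not say whether these count reads by strand. The genes of a pair have counts of their own, as in beta-like cells with 191 UMIs of Slc39a11 and 6 of Sstr2. The part of the overlap in the receptor levels was not tested. The 250 bases before the RefSeq start of Sstr2, at chr11:113619077-113619326 on the plus strand of GRCm38.p6, are shown because Sstr2 was the receptor highest in alpha-like and near absent from beta-like cells. The capitals mark a full cyclic AMP response element, 58 bases before the start, a string that 1.55% of all promoter windows hold.
Sstr2: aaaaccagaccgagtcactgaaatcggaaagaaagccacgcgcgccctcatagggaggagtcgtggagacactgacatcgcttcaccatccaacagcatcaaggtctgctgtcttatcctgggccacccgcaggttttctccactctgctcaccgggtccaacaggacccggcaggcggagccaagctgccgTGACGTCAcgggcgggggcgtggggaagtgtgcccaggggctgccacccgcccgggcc

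Sstr3 was found in both classes. Alpha-like cells held 7.74 and 10.9 CPM at E12.5 (version 1 and version 2), 13.1, 23.4, 3.09 and 14.1 CPM at E14.5 (version 1 batch 1, version 1 batch 2, version 2 and Fev-Cre), and 13.5 and 31.6 CPM at E17.5 (version 1 and version 2). Beta-like cells held 5.67, 7.55, 6.28 and 7.52 CPM at E14.5 and 27.0 and 18.5 CPM at E17.5 in the same order of libraries. Alpha-like cells were higher in 4 of 6 libraries and the ranges overlapped. The fitted log2 difference of Sstr3 between beta-like and alpha-like cells was -0.18 (SE 0.25). Fev+-like cells held 0 to 9.13 CPM and stood below the alpha-like cells in 8 of 8 libraries and below the beta-like cells in 6 of 6. Outside the endocrine cells Sstr3 did not exceed 0.875 CPM.

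**Figure D2:**
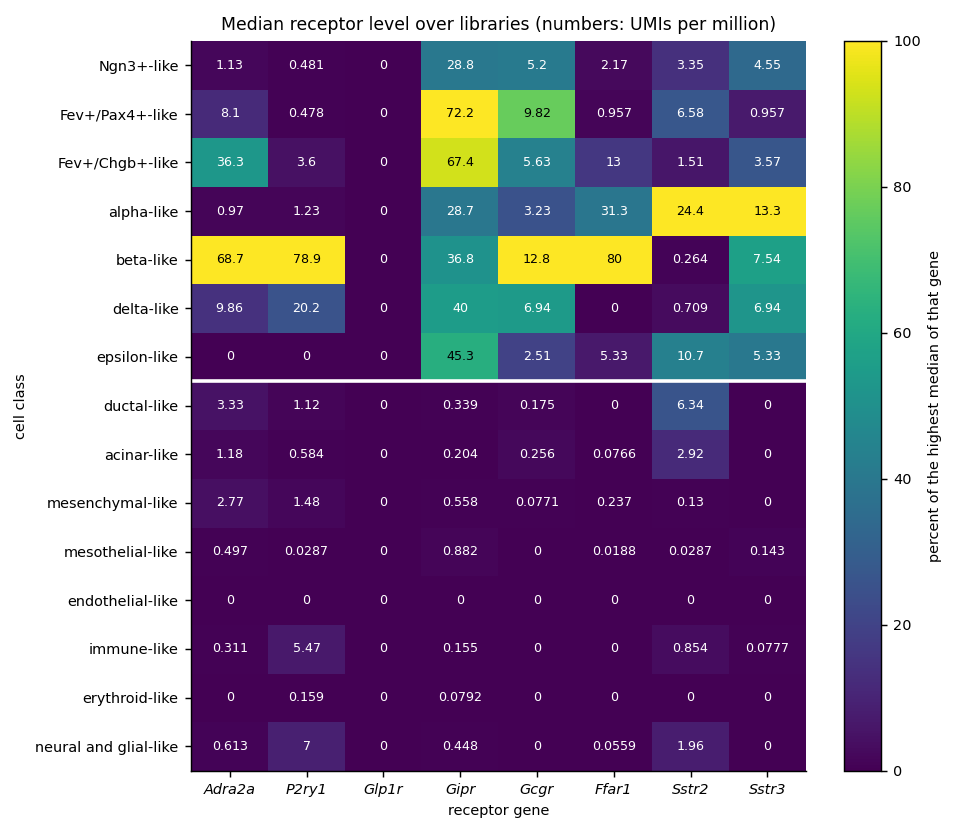
Rows are 15 cell classes, the 7 endocrine ones above the white line, and columns are the 8 receptor genes. Each number is the median level over libraries in UMI counts-per-million, and the colour gives it as a percentage of that gene's highest median, so colours compare classes within a column. Gipr, Gcgr, Ffar1 and Sstr3 have medians under 1 in all 8 non-endocrine classes, whereas Sstr2 reaches 6.34 in ductal-like and P2ry1 reaches 6.999 in neural and glial-like cells.

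The stage comparison asked how the receptors moved between E14.5 and E17.5 within a class. Of the 6 receptors that passed the filter on low counts in beta-like cells, Sstr3 was the one whose groups did not overlap, with 5.67 to 7.55 CPM in the 4 libraries of E14.5 and 18.5 and 27.0 CPM in the 2 of E17.5. These values rested on 1, 2, 6 and 27 UMIs at E14.5 (version 1 batch 1, version 1 batch 2, version 2 and Fev-Cre) and on 9 and 224 UMIs at E17.5 (version 1 and version 2). The fitted log2 difference was 2.20 (SE 0.40), with kit as a term. Of the 6957 genes tested, 0.632% were called higher and 0.244% lower (adjusted p under 0.05 and at least 2-fold), and 1 of the 6 receptors, Sstr3, was among them. As the receptors were chosen with their levels known, nothing is read from that call or count. Ffar1, P2ry1, Gipr and Gcgr differed by 0.88 (SE 0.29), 0.70 (SE 0.29), 0.61 (SE 0.30) and 1.31 (SE 0.44), with overlapping values. Within batch 2 of the version 1 kit, from E14.5 to E17.5, Sstr3 went from 7.55 to 27.0 CPM, P2ry1 from 64.2 to 90.0, Gipr from 37.7 to 66.0, Ffar1 from 67.9 to 75.0, Adra2a from 83.0 to 75.0 and Gcgr from 15.1 to 9.00 CPM in beta-like cells. The values of Gcgr there rest on a few UMIs each.

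Adra2a in beta-like cells differed by -0.11 (SE 0.31) between the stages. Relative to all UMIs its lowest value was the version 2 E17.5 library (41.4 CPM), where hormones took 45.2% of UMIs. With the hormone genes left out of the total the library stood at 75.5 CPM, inside the E14.5 range of 72.0 to 141 CPM. Under that scaling Ffar1 reached 170 CPM in the version 2 E17.5 library, above the 62.6 to 106 CPM of E14.5, but 102 CPM in the version 1 E17.5 library, inside it.

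In alpha-like cells, 4 receptors passed the filter on low counts, and each had a positive fitted difference from E14.5 to E17.5. The log2 values were 1.44 (SE 0.45) for Sstr2, 1.40 (SE 0.52) for Sstr3, 0.79 (SE 0.37) for Ffar1 and 0.59 (SE 0.38) for Gipr. Called were 0.670% of 8510 genes (0.400% higher and 0.270% lower) and 0 of these 4 receptors, and nothing is read from that count. Sstr2 had both E17.5 libraries (26.9 and 33.5 CPM) above all 4 of E14.5 (5.20 to 21.8 CPM), as did Gipr (47.1 and 37.0 against 22.9 to 35.6 CPM), whereas Ffar1 and Sstr3 overlapped. The version 1 E17.5 values came from 4 UMIs of Sstr2 and 7 of Gipr. Within batch 2 of the version 1 kit, from E14.5 to E17.5, Sstr2 went from 5.20 to 26.9 CPM and Gipr from 31.2 to 47.1 CPM. Ffar1 went from 44.2 to 20.2 CPM and Sstr3 from 23.4 to 13.5 CPM. The E17.5 values rest on a few UMIs each in 44 alpha-like cells, as does that of Sstr2 at E14.5, so no direction is read from them. Within the version 2 Swiss Webster libraries alone Ffar1 went from 21.2 (E12.5) over 26.3 (E14.5) to 68.4 CPM (E17.5), Sstr3 from 10.9 over 3.09 to 31.6 CPM, and Gipr from 22.9 over 35.6 to 37.0 CPM. The 2 wells of the E17.5 version 2 suspension gave 69.1 and 67.6 CPM for Ffar1 and 29.4 and 34.1 CPM for Sstr3 in alpha-like cells. They lay further apart in smaller classes, as for Ffar1 in Fev+/Chgb+-like cells (52.6 and 34.98 CPM) and Gipr in delta-like (38.6 and 59.8 CPM) and epsilon-like cells (26.3 and 64.8 CPM, from 5 and 12 UMIs).

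**Figure D3:**
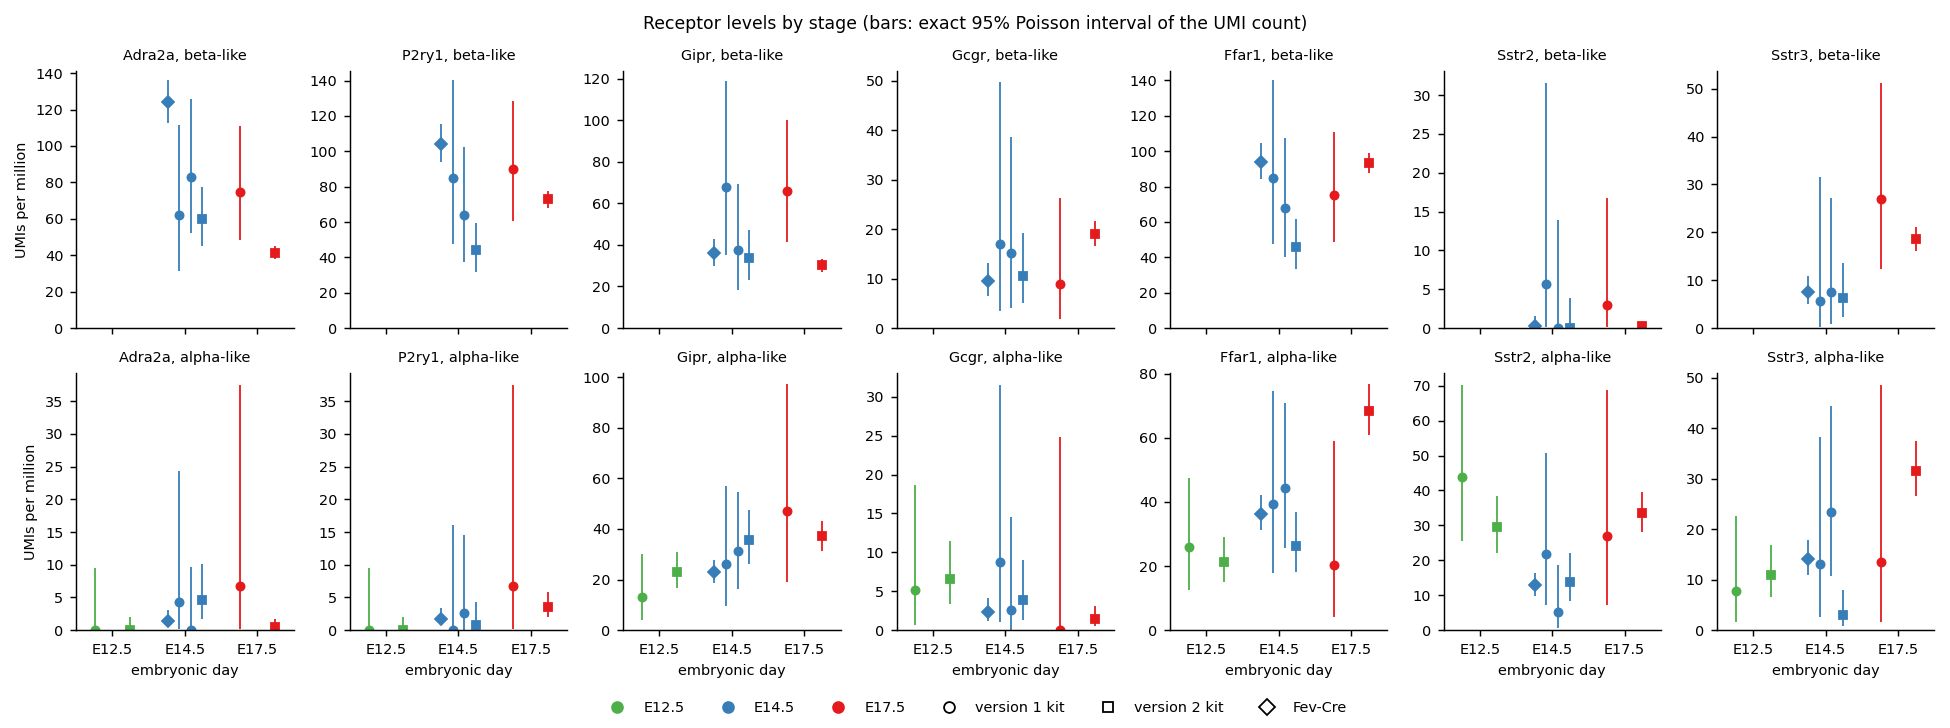
Each panel plots 1 receptor in beta-like (upper row) or alpha-like cells (lower row), with embryonic day on the x axis and UMI counts-per-million on a linear y axis of its own that starts at 0. Each point is 1 library and its bar is the exact 95% Poisson interval of the UMI count, which covers counting error only. Sstr3 in beta-like cells sits at 5.67 to 7.55 in the E14.5 libraries and at 18.5 and 27.0 in the E17.5 libraries.

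The genes whose levels over 23 sums of a class in a library, from the 4 libraries of the version 2 kit, were most like those of each receptor are given as a description. The points share libraries, depth and class, and the coefficient is Pearson's r of log2(CPM + 10). Nnat stood among the 3 most alike of Adra2a (0.88), P2ry1 (0.89) and Gcgr (0.63), and ranged from 50.6 to 7072 CPM. Adra2a was otherwise most like 2210019I11Rik (0.90) and Gm27033 (0.87), and P2ry1 most like Mapt (0.91), which encodes tau, and Syndig1l (0.89). Gcgr was also like Fam151a (0.67) and Rbm15b (0.60). Ffar1 was most like Il1r1, the interleukin-1 receptor (0.92), Maob, a monoamine oxidase (0.90), and Ociad2 (0.89). Gipr was most like the transcription factor Stat3 (0.86), Iqgap1 (0.81) and Ankle2 (0.81). Sstr2 was most like Nxph1 (0.78), Mapk15 (0.77) and Trf, which encodes transferrin (0.74), and Sstr3 most like Ifi30 (0.79), Ttc39b (0.78) and Fmn2 (0.76). Glp1r was too low to be compared.

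The receptors were then set beside the other genes of their pathway, in 4 lists made with earlier results of these data known. These hold 62 other G protein-coupled receptors with a role or a relative in the islet, 13 G alpha subunits, 53 second messenger effectors (adenylyl cyclases, phospholipases C, phosphodiesterases, protein kinases A and C and inositol trisphosphate receptors) and 7 receptor kinases and arrestins. Genes of the lists, like the 8 receptors, were kept out of the genes used to cluster the cells, although the classes were still drawn from other UMIs of the same cells. Comparisons between classes were therefore repeated with the classes drawn from a random part of the UMIs and the genes counted in the rest. Most listed genes were too low to test, and 43 to 53 of the 135 passed the filter on low counts in a comparison. Comparisons that name the same class share its samples. In each comparison the 3 called genes with the largest differences in each direction were named by rule, and other called genes were named after their values were seen, to account for a count.

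Between Fev+-like and Ngn3+-like cells, all called genes of the lists were higher in the Fev+-like cells. Here 13.8% of 8670 genes were called, 7.43% higher and 6.39% lower. The 8 receptors gave 3 tested genes, of which Adra2a (2.98, SE 0.50) and Ffar1 (3.07, SE 0.54) were called and Gipr (0.57, SE 0.40) was not, and nothing is read from that count. The G alpha subunits gave 4 higher of 9 tested, with a median log2 difference of 0.92 against 0.01 over all genes. These were Gnai1 (2.54, SE 0.34, adjusted p = 0.0001047, edgeR quasi-likelihood test), which encodes a Gi subunit, Gnao1 (2.40), Gnaz (1.86) and Gnas (1.70), the Gs subunit.

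Gnai1 stood at 2.92 to 13.5 CPM in the Ngn3+-like cells of 6 libraries and at 10.7 to 178 CPM in the Fev+-like cells of 8. The ranges overlapped at the version 2 E12.5 library alone, whose Fev+-like cells, all Fev+/Pax4+-like, gave the lowest value, from 5 UMIs. Of the other receptors, 3 of 12 tested were higher, with a median of 0.0012 against 0.01. Ffar4, which senses long-chain fatty acids, went from 9.14 to 69.2 CPM in Ngn3+-like cells to 77.8 to 382 CPM in Fev+-like cells, and the ranges did not overlap (2.55, SE 0.23, adjusted p = 8.307e-06). Gpr119, a Gs receptor for lipid amides, went from 0 to 5.58 CPM to 0 to 32.4 CPM (3.14, SE 0.61, adjusted p = 0.001398). The value of 0 in Fev+-like cells was the version 1 E17.5 library, which held 10 Ngn3+-like cells and so is not in the fit. The third was Ptger3, a Gi receptor for prostaglandin E2. The effectors gave 5 higher of 23 (median 0.22) and the kinases and arrestins 1 of 4, Adrbk2 (1.09, SE 0.23). Over the 4 lists together 13 genes were called, and 7 without the Fev-Cre library.

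Between beta-like and alpha-like cells, the called other receptors were all higher in the beta-like cells, and the called effectors went in both directions. Of the 8463 genes tested 9.26% were called, 4.76% higher and 4.5% lower in beta-like cells. Of the 8 receptors, 7 were tested and 5 called (Adra2a, P2ry1, Gcgr and Ffar1 higher, Sstr2 lower at -5.37, SE 0.47), and nothing is read from that count. Of the other receptors 3 of 11 tested were called, with a median of -0.02 against -0.02 over all genes. Crhr2, a receptor of urocortins, stood at 10.8 to 69.0 CPM in beta-like cells and 2.58 to 13.1 CPM in the alpha-like cells of these libraries, and was higher in beta-like cells in 6 of 6 (2.46, SE 0.26, adjusted p = 5.142e-09). Ffar3, a Gi receptor of short-chain fatty acids, stood at 8.38 to 26.4 CPM in beta-like cells, at 0 to 4.22 CPM in alpha-like cells and at 0 in the delta-like cells of 4 libraries. The beta-like and alpha-like ranges of Ffar3 did not overlap (2.37, SE 0.34, adjusted p = 1.72e-06). Galr1, the Gi receptor for galanin, was higher at 5.24 to 27.0 against 0 to 20.2 CPM, with overlap (1.35, SE 0.37, adjusted p = 0.005825).

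Gnai1 was the 1 called G alpha subunit of 10 tested between these classes (10%, near the 9.26% of all genes). It stood at 161, 112, 93.6 and 62.7 CPM in the alpha-like cells of E14.5 (version 1 batch 1, version 1 batch 2, version 2 and Fev-Cre) and at 222 and 103 CPM in those of E17.5 (version 1 and version 2). The beta-like cells of the same libraries held 11.3, 26.4, 9.43, 14.49, 105 and 18.9 CPM of Gnai1. Alpha-like cells were higher in 6 of 6 libraries, and the version 1 E17.5 beta-like cells alone reached into the alpha-like range (-1.86, SE 0.20, adjusted p = 1.106e-06). Without the library as a term the adjusted p for Gnai1 was 0.06278.

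Of the effectors 25 were tested and 3 called (12%, near the 9.26% of all genes), with a median of 0.01. Pde1a, a phosphodiesterase activated by calcium and calmodulin, stood at 13.5 to 26.7 CPM in alpha-like and 0 to 5.67 CPM in beta-like cells (-4.20, SE 0.35, adjusted p = 5.435e-11), and not 1 UMI was counted in delta-like cells. Pde4d, a phosphodiesterase specific to cyclic AMP, stood at 6.73 to 45.4 CPM against 2.07 to 11.4 CPM (-2.19, SE 0.23, adjusted p = 4.936e-09), and higher in the alpha-like cells of 6 of 6 libraries. Prkcb, a protein kinase C, was higher in beta-like cells, at 21.2 to 68.0 against 13.5 to 34.9 CPM (1.00, SE 0.18, adjusted p = 5.061e-05). None of the 5 kinases and arrestins tested was called by edgeR, with 2 at an unadjusted p under 0.05 and 0 called by DESeq2. The 4 lists together gave 7 called genes, and 3 without the Fev-Cre library, 3 without the version 2 E14.5 library and 4 without the version 2 E17.5 library. With the classes drawn from a part of the UMIs, Crhr2, Pde4d and Gnai1 were called again, and Ffar3, Galr1 and Pde1a did not pass the filter.

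**Figure D4:**
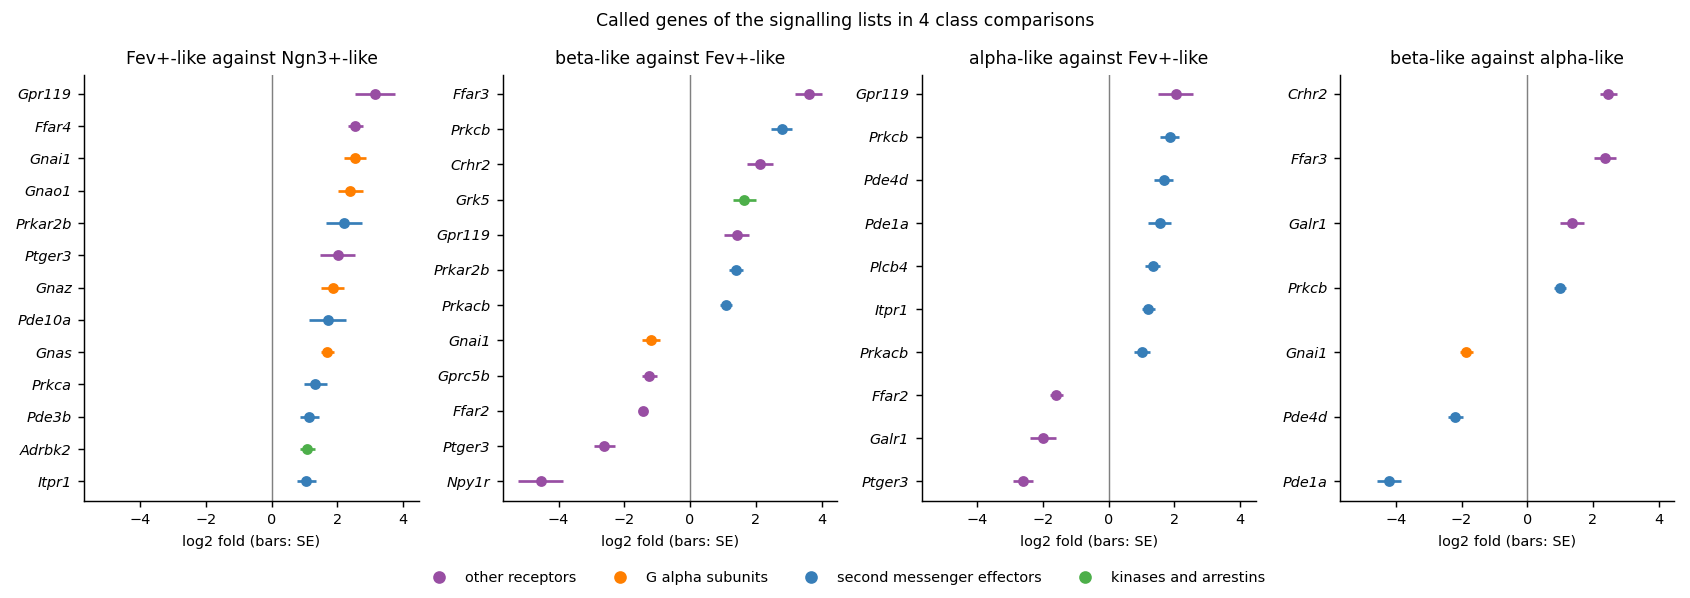
Each of 4 panels is a comparison between classes, and each point is a called gene of the 4 signalling lists, coloured by list, at its fitted log2 difference on the x axis with a bar of 1 SE to each side. Between Fev+-like and Ngn3+-like cells all 13 points lie above 0. Gnai1 is at 2.54 in that panel and at -1.86 between beta-like and alpha-like cells, and the point of Npy1r rests on 2 UMIs in beta-like cells.

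Hormone-producing and Fev+-like cells differed in receptors in both directions. Between beta-like and Fev+-like cells 10.5% of 8745 genes were called, 5.97% higher and 4.49% lower in beta-like cells. The 8 receptors gave 6 tested and 5 called, all higher in beta-like cells, and nothing is read from that count. The other receptors gave 3 higher and 4 lower of 15 tested, with a median of -0.36 against -0.04 over all genes. Higher were Ffar3 (3.60, SE 0.41, adjusted p = 2.65e-06), which Fev+-like cells held at 0 to 1.88 CPM, Crhr2 (2.14, SE 0.39, adjusted p = 0.001233) and Gpr119 (1.41, SE 0.39). Lower were Ptger3, at 1.05 to 9.00 CPM in beta-like and 11.4 to 57.7 CPM in the Fev+-like cells of the same libraries (-2.61, SE 0.32, adjusted p = 6.717e-06), Ffar2, another receptor of short-chain fatty acids, at 72.7 to 174 against 273 to 611 CPM (-1.43, SE 0.12, adjusted p = 4.518e-08), and Gprc5b, an orphan receptor (-1.24, SE 0.22).

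Neither Ptger3 nor Ffar2 overlapped between beta-like and Fev+-like cells. Npy1r, the neuropeptide Y receptor, gave 0 UMIs in the beta-like cells of 4 libraries and 1 UMI each in the Fev-Cre and version 2 E17.5 libraries, and 3.84 to 14.9 CPM in their Fev+-like cells (adjusted p = 5.511e-05). G alpha subunits gave 1 lower of 10 (Gnai1, -1.19, SE 0.28), with a median of 0.26. The effectors gave 3 higher of 23 (Prkcb 2.78, SE 0.33, adjusted p = 2.197e-05, Prkar2b 1.39 and Prkacb 1.098), with a median of 0.25. The kinases and arrestins gave 1 higher of 5, the receptor kinase Grk5 (1.65, SE 0.34). Of the 12 called genes of the lists, 7 were called without the version 2 E14.5 library.

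Between alpha-like and Fev+-like cells 8.35% of 8109 genes were called (4.80% higher and 3.55% lower in alpha-like cells), and the 8 receptors gave 5 tested with 3 higher and 1 lower, from which nothing is read. The other receptors gave 1 higher and 3 lower of 11 tested, with a median of -0.41 against 0.01. The higher one was Gpr119, at 33.9 to 101 CPM in alpha-like and 0 to 32.4 CPM in Fev+-like cells, without overlap (2.04, SE 0.53, adjusted p = 0.02248). That call was lost without the version 1 E14.5 batch 2 (adjusted p = 0.057), the version 2 E12.5 (0.06381) or the version 2 E14.5 library (0.06422), without a filter on low counts (0.05557) and with classes drawn from a part of the UMIs (0.09891). Epsilon-like cells held 66.6 to 75.2 CPM of Gpr119 in 3 libraries. Lower in alpha-like cells were Ptger3 (-2.61, SE 0.31, adjusted p = 3.263e-06), Galr1 (-2.00, SE 0.39, adjusted p = 0.0006143) and Ffar2 (-1.59, SE 0.19, adjusted p = 0.0001085).

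Ptger3 and Ffar2 were lower in alpha-like than in Fev+-like cells in 8 of 8 libraries. No G alpha subunit of 9 tested was called by edgeR (3 at an unadjusted p under 0.05, 0 by DESeq2), nor any of 4 kinases and arrestins (2 and 0). The effectors gave 6 higher of 24, with a median of 0.34: Prkcb (1.85, SE 0.29, adjusted p = 7.433e-05), Pde4d (1.67, SE 0.28, adjusted p = 0.0001456), Pde1a (1.55), Plcb4 (1.33), Itpr1 (1.21) and Prkacb (1.02). With classes drawn from a part of the UMIs, Ptger3 and Ffar2 were called again against both hormone classes, and Prkcb and Crhr2 were called again in the beta-like comparison.

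With stage, 1 listed gene of 43 tested was called in beta-like cells, and 1 higher and 1 lower of 53 in alpha-like cells. No reading is made of such small counts. In beta-like cells, where 0.877% of 6957 genes were called, Gnai1 was called among 10 G alpha subunits, at 9.43 to 26.4 CPM at E14.5 and 105 and 18.9 CPM at E17.5 (1.84, SE 0.35, adjusted p = 0.01823). The version 2 E17.5 value lay inside the E14.5 range. The call was lost without the version 1 E17.5 library (adjusted p = 0.1384) and without kit as a term (0.1367), and Gnai1 did not pass the filter without the Fev-Cre or the version 2 E14.5 library. No other receptor of 8, effector of 22 or kinase or arrestin of 3 was called by edgeR (0, 2 and 1 at an unadjusted p under 0.05) or by DESeq2.

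In alpha-like cells 0.670% of 8510 genes were called between the stages, and 2 listed genes with them. These were 1 of 9 other receptors and 1 of 29 effectors tested. Gpr119 stood at 33.9 to 56.7 CPM at E14.5 and at 101 and 85.7 CPM at E17.5, without overlap (1.29, SE 0.31, adjusted p = 0.03904), and at 85.2 and 77.9 CPM at E12.5. Prkaca, the catalytic subunit of protein kinase A, stood at 81.2 to 231 CPM at E14.5 and at 101 and 31.4 CPM at E17.5 (-1.47, SE 0.33, adjusted p = 0.02226). The version 2 E17.5 library also held the lowest Prkaca of all libraries in Ngn3+-like (17.49 CPM), Fev+-like (28.8 CPM) and beta-like cells (20.4 CPM), and the part of the library in this call was not tested. Neither call held without the Fev-Cre library (adjusted p = 0.06444 for Gpr119 and 0.06637 for Prkaca), without version 1 E14.5 batch 2 (0.2132 and 0.1174) or without the version 2 E17.5 library (0.7557 and 0.7581), nor with DESeq2 (0.1137 and 0.0559) or without kit as a term (0.2139 and 0.5928). That of Gpr119 was also lost without the version 1 E17.5 library (0.1575) and with classes drawn from a part of the UMIs (0.1348). No G alpha subunit of 10 and no kinase or arrestin of 5 was called (2 and 0 at an unadjusted p under 0.05, and 0 by DESeq2).

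Whether the ratio of beta-like to alpha-like cells changed between the stages was tested as an interaction, for which 1.54% of 8463 genes were called, 0.874% with a higher and 0.662% with a lower ratio at E17.5. For the receptors, the fitted changes of the log2 ratio are given as a description. They were 2.58 (SE 0.79) for Gcgr, 0.93 (SE 0.89) for Adra2a, 0.75 (SE 0.44) for Sstr3 and 0.03 (SE 0.27) for Ffar1, and -0.08 (SE 0.31) for Gipr, -0.85 (SE 0.59) for P2ry1 and -1.06 (SE 1.62) for Sstr2. That of Gcgr rested on 0 and 1.41 CPM in the alpha-like cells of E17.5. Among the lists, 0 of 11 other receptors (1 at an unadjusted p under 0.05), 0 of 10 G alpha subunits (2) and 0 of 5 kinases and arrestins (0) were called, and DESeq2 called 0 of each. Of 25 effectors Itpr1 was called, with a log2 ratio that fell by 1.42 (SE 0.27, adjusted p = 0.0004329), a call lost without the Fev-Cre library (adjusted p = 0.08827) or the version 2 E17.5 library (0.7821) and with DESeq2 (0.1785). Without version 1 E14.5 batch 1, which leaves the version 1 libraries of 1 batch, Itpr1 was called again (-1.495, adjusted p = 0.0004366), as were Gnai1 with stage in beta-like cells (1.637, adjusted p = 0.01984) and Gpr119 (1.345, adjusted p = 0.04234) and Prkaca (-1.483, adjusted p = 0.0405) with stage in alpha-like cells.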

How the data were processed

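Single-cell RNA was counted in 8 libraries of embryonic mouse pancreas, from 10 deposited matrices. The authors aligned reads to mm10 and counted them with Cell Ranger (1.1 for version 1 and 2.1 for version 2 libraries in their processing notes), and deposited UMI counts per gene and cell, not normalized. The Fev-Cre library was deposited as 2 alignments, of which the one with reporter sequences was used, the other being an alternative. No column was left unused.

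Cells with at least 200 genes were reduced to 20 principal components of 2000 variable genes, with library and depth regressed out, and clustered (scanpy 1.11.5, Leiden resolution 1, leidenalg 0.10.2), and the endocrine cells were clustered again, the version 1 libraries together and each version 2 library alone. The receptors and the genes of the lists were kept out of the variable genes. Clusters were named from fixed markers, and the thresholds of that naming were set after the clusters had been seen. Cells holding markers of 2 excluding compartments, each at 30% or more of its usual share, were taken out as doublets, 2471 in all, which does not remove doublets among endocrine classes. Raw UMIs were summed per library and class. The receptors and the gene lists were chosen with earlier results of these data known. Class and stage comparisons used edgeR 4.0.16 (quasi-likelihood test, TMM, filterByExpr) in R 4.3.3, with library (class comparisons) or kit (stage comparisons) as a term, and Benjamini-Hochberg adjustment over all genes tested. Calls needed an adjusted p under 0.05 and a change of at least 2-fold, the change of a ratio at the adjusted p alone. DESeq2 1.42.0 was an alternative. Libraries that each come from pooled pancreata are the replicates, and the labels give batch 2 to the version 1 libraries of each stage. As 1 such pair joins E14.5 and E17.5, batch was no term. Leaving out version 1 E14.5 batch 1 puts the version 1 libraries of the stage fit in 1 batch. The version 2 Swiss Webster libraries, each of another day, and the Fev-Cre library stay in that fit, so it is not a fit within batch. The classes of 1 library come from 1 suspension, and their deviations from the class mean correlated at 0.33 to 0.78 in each library (Pearson's r over genes), so the library served as the pairing. Intervals are exact Poisson (CPM) or exact binomial (shares) at 95%. The code was tested on simulated counts before use.

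The text names the 8 receptors, the 3 genes most alike to each in CPM (mean of at least 10 CPM), and up to 3 called genes of the lists per direction and comparison, with the largest fold changes. Glp1r was left out of the second rule as its level was too low. Alternatives were another test, another normalization, no count filter, no library term, each library left out, doublets kept, 500 genes per cell, resolution 1.5, classes from a random part of the UMIs with the test on the rest, UMIs per cell, no thinning, the other alignment and hormone UMIs left out of the total. Gene positions are from GENCODE M21 (GRCm38), promoter windows from RefSeq (GRCm38.p6), where 7 of the 8 receptors matched.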

Additional observations from a re-analysis of the deposited data

Results flagged for a closer look

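Itpr1, which encodes the type 1 receptor for inositol trisphosphate on internal calcium stores, was the 1 gene of the signalling lists whose ratio of beta-like to alpha-like cells differed between E14.5 and E17.5. The change of the log2 ratio was -1.42 (SE 0.27, adjusted p = 0.0004329, edgeR quasi-likelihood test of the interaction). Beta-like cells held 39.7, 49.1, 37.7 and 70.5 CPM of Itpr1 at E14.5 (version 1 batch 1, version 1 batch 2, version 2 and Fev-Cre) and 21.0 and 22.3 CPM at E17.5 (version 1 and version 2). Alpha-like cells held 78.5, 41.6, 58.0 and 67.1 CPM at E14.5 and 74.0 and 105 CPM at E17.5. Hormone UMIs took 26.4% (version 1) and 45.2% (version 2) of the beta-like total at E17.5, and the part of this in the change was not tested. The call was lost with DESeq2 (adjusted p = 0.1785), without the library term (0.9999), without the Fev-Cre library (0.08827) and without the version 2 E17.5 library (0.7821). It held when classes were drawn from a random part of the UMIs (-1.58, adjusted p = 0.0002825).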

How the results depend on the processing

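Glp1r has a median of 0 in every class. For 6 of the other 7 receptors the class with the highest median CPM was kept under the alternatives to it, and Gcgr was highest in delta-like cells with classes drawn from a part of the UMIs and in Fev+/Pax4+-like cells without version 1 E14.5 batch 1. By the share of cells with a UMI, thinned or not, Gipr was highest in Fev+/Chgb+-like in place of Fev+/Pax4+-like cells. Counts of called genes moved more, and the cause was not tested beyond the smaller number of genes or samples that an alternative leaves. Without the library or kit as a term (no replicate block, that is without the pairing of classes from 1 library), called genes went from 784 to 399 between beta-like and alpha-like, from 1198 to 524 between Fev+-like and Ngn3+-like, from 915 to 556 between beta-like and Fev+-like and from 677 to 323 between alpha-like and Fev+-like cells. They went from 61 to 18 for stage in beta-like cells, from 57 to 6 for stage in alpha-like cells, and from 130 to 0 for the change of the beta-like to alpha-like ratio (edgeR, 132 at an unadjusted p under 0.05), where DESeq2 with the term gave 14 and clustering at resolution 1.5 gave 254. In that order of comparisons, the lists together then held 1, 5, 6, 5, 0, 0 and 0 called genes, against 7, 13, 12, 10, 1, 2 and 1. With no filter on low counts, 1356 (beta-like against alpha-like), 1225 (alpha-like against Fev+-like), 254 (stage, beta-like) and 104 (stage, alpha-like) genes were called. With classes drawn from a part of the UMIs, 514, 545, 307, 39 and 21 were called (beta-like against alpha-like, beta-like and alpha-like against Fev+-like, and stage in beta-like and in alpha-like cells). Leaving out each library in turn gave 472 to 966 for beta-like against alpha-like (501 without version 2 E14.5 and 472 without version 2 E17.5), 812 to 1314 for Fev+-like against Ngn3+-like, 597 to 1025 for beta-like against Fev+-like (597 without version 2 E14.5) and 546 to 873 for alpha-like against Fev+-like cells. For stage in beta-like cells it gave 19 to 140 (19 without Fev-Cre, which leaves 1 strain, 37 without version 2 E17.5 and 140 without version 1 E17.5). For stage in alpha-like cells it gave 15 to 93 (28 without version 1 E14.5 batch 2, 93 without version 2 E14.5 and 15 without version 2 E17.5), and for the ratio 4 to 206 (56 without Fev-Cre, 206 without version 1 E17.5 and 4 without version 2 E17.5). Where an E17.5 library was left out, the lone other one is assumed to vary like those of E14.5. Where they were tested, the named genes of the lists kept direction and call in 294 fits and lost the call in 26, and no value changed direction. Fits in which a named gene did not pass the filter on low counts are in neither number. Of the receptor medians 722 moved by less than the spread between libraries and 6 by more. Without version 1 E14.5 batch 1, which leaves version 1 libraries of 1 batch, 76 genes (stage, beta-like), 56 (stage, alpha-like) and 108 (ratio) were called. The values of Glp1r, of Sstr2 in beta-like cells, and of Gcgr and Sstr3 in the version 1 beta-like cells rest on a few UMIs. This limits what can be read from them.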
